A study of Mus musculus with 3 samples.

Results

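The genes described here are 48 mouse genes of the type I interferon response, chosen by name. All 48 were present as gene symbols in the counts table, out of 14355 genes. The list was drawn up with earlier results of these data known, which bears on comparisons of members with all genes. Type I interferons are secreted alarm signals that bind a receptor of 2 chains, Ifnar1 and Ifnar2. The receptor acts through the kinases Jak1 and Tyk2 on factors that include Stat2, which joins Irf9 in the complex ISGF3. ISGF3 binds a DNA element called the ISRE in the promoters of antiviral genes. Most cells also carry a low, tonic level of this programme without infection, and T cells are among them. By role, the list holds 5 genes of signalling and transcription, 5 nucleic acid sensors, 13 effectors that act on RNA and 7 immunity GTPases. Another 5 are listed as effectors of virus assembly or entry, among them the ubiquitin ligase Trim30a. The rest are 5 genes of the ubiquitin-like and ADP-ribosyl system and 8 other induced genes.

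The cells were naive CD4 T cells of C57BL/6 mice, males and females pooled, aged 8 to 12 weeks, taken from spleen and lymph nodes and sorted without any treatment. The sort gate was TCRb+ CD4+ CD8- CD25- CD44- CD62L+ CD5+, and single cells went into 3 plates of 384 wells with their CD5 fluorescence recorded. CD5 is a surface protein that is set higher on T cells that receive stronger tonic signals from self-peptides. The authors' CD5 classes held 174 Low, 349 Middle and 174 High cells, and no infected or interferon-treated cells were part of the data.

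Plates 1, 2 and 3 held 172, 201 and 324 cells, with a median of 3749, 5449 and 3952 UMIs (unique molecular identifiers, each marking a captured transcript) per cell. The plate is the replicate throughout. Nothing in the labels says that plates came from separate animals, so the spread between plates may be technical. The T cell markers fitted the gate: Cd4 was found in 95.7% of cells and Cd3e in 80.6%. Each of 4 B cell markers was found in 0.574% to 1.58%. Markers of other cell types spread more widely. Plasmacytoid dendritic markers ran from 0.574% (Siglech) to 9.18% (Bst2, itself a member), and NK cell markers from 0.143% (Nkg7) to 9.04% (Klrd1). Myeloid markers ran from 0.717% (Cd68) to 40.2% (Ctss). Foxp3, the defining factor of regulatory T cells, was found in 8.03% and had no count in plate 1. In plate 2 the Cd5 transcript did not follow the CD5 class, which bears on every comparison over CD5 below. Its High over Low log2 ratio was 0.12 there, against 2.69 in plate 1 and 2.72 in plate 3.

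The ISRE is the DNA element through which ISGF3 acts, so the promoters were searched for its core, GAAANNGAAA, on both strands. RefSeq promoters (GRCm38.p6, 250 bases before to 50 after a gene's start) were matched by symbol for 38 of the 48 genes. The core was present in 21 of the 38 (55.3%), against 3.99% of 27025 genes with a promoter in the same table. A second element of interferon responses, the GAS (TTCNNNGAA), was present in 7 of the 38 (18.4%), against 9.55% of all genes. Both motifs stood together in 4 of the 38 genes (10.5%), against 0.614% of all genes. A match is a description of the letters and not a site of binding. Of 21 genes with the core, Stat2, Slfn5, Gbp2, Gbp3, Rsad2, Oas1a, Oas3 and Ifih1 are examples. Irf7, Irf9, Xaf1, Ifi47, Slfn1 and Samd9l are among the 17 genes without these letters in the window. The promoters below, of 6 genes, are written 5′ to 3′ on the gene's strand, with every copy of the core in capitals. Ifit1 and Isg15 show the repeated element of strongly inducible genes, and Igtp and Ddx58 hold a single copy. Irf7 and Xaf1 hold none, and led the co-variation described below among members found in at least 10 cells of each plate. Ifit1 fell outside that limit and had a higher mean correlation than either.
Ifit1 (chr19:34640639-34640938, plus strand): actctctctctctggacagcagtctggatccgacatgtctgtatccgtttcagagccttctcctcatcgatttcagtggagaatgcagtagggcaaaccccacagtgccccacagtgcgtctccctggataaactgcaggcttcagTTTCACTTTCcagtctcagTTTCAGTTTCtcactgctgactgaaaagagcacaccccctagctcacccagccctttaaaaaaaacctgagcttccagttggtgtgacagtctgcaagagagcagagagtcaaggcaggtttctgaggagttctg
Isg15 (chr4:156200769-156201068, minus strand): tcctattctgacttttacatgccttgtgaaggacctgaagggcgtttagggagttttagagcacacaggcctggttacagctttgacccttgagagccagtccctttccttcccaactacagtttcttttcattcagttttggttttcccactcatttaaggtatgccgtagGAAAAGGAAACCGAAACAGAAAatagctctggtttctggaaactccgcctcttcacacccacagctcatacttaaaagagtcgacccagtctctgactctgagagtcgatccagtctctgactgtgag
Igtp (chr11:58199306-58199605, plus strand): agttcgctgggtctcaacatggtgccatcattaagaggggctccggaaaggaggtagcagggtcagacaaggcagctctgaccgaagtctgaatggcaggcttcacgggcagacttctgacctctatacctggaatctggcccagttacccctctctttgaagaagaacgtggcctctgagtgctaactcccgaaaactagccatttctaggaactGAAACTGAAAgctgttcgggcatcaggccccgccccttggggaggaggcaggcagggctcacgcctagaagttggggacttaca
Ddx58 (chr4:40239776-40240075, minus strand): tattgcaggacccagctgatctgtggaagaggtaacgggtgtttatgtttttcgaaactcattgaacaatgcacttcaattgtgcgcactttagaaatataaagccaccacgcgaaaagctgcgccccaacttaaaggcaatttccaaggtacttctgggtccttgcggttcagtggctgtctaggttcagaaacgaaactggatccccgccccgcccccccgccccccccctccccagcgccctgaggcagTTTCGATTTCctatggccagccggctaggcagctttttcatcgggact
Irf7 (chr7:141266375-141266674, minus strand): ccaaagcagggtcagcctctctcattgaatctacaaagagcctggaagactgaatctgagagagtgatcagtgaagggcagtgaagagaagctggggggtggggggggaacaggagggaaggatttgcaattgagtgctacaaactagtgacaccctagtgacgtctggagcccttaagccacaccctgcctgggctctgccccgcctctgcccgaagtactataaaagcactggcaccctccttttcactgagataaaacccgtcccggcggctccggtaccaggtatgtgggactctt
Xaf1 (chr11:72301379-72301678, plus strand): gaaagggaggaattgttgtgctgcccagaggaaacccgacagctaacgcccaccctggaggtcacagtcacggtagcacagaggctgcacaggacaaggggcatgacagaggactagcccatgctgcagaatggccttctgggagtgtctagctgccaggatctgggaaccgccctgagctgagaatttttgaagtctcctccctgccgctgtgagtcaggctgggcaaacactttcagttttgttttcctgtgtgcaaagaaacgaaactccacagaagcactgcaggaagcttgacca
The pair of cores in Ifit1 begin 104 and 85 bases before the start, and the overlapping cores of Isg15 begin 78 bases before it. In Igtp the core begins 34 bases before the start, and in Ddx58 it lies just after the start.

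In the genome (mm10, GENCODE M21) the 48 genes lie on 15 chromosomes. With genes up to 1000 kb apart joined, 23 of them fall in 9 clusters. The Ifit genes (Ifit2, Ifit3 and Ifit1) span chr19:34550694-34650009, the guanylate-binding genes Gbp7, Gbp3 and Gbp2 span chr3:142530342-142638008, and the Schlafen genes Slfn5, Slfn8 and Slfn1 span chr11:82951349-83122670. Nearby members are often close copies, and 19 members overlap another annotated gene, among them Ifi203 with Mndal and Dtx3l with Parp9. The sources used here do not give how reads shared by such genes were counted or whether strand was used, so values of these pairs are uncertain.

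Interferon response genes were detected in the naive cells of every plate. The 48 genes together took 0.414%, 0.366% and 0.340% of the gene counts of plates 1, 2 and 3 (mean 0.373%, SD 0.0374, n = 3). In plate 1 a pair of cells held 286 and 255 of the member counts, and their part in its share was not tested. The median member stood at 52.0 CPM (counts of a gene per 1e+06 gene counts of its plate), against 12.1 for the median of all genes, and 42 of 48 members lay above that median gene. Each transcript is counted once at its 3′ end here, so CPM levels compare between genes without a length correction. A cell held a median of 6, 8 and 7 of the 48 genes in plates 1, 2 and 3, and 7 of 697 cells held none. Detection was sparse for most members: 13 were found in at least 20% of cells, 24 in 5% to 20% and 11 in under 5%.

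Of the 48 genes 3 stood well above the others. Ifi203, a DNA-binding protein of the PYHIN family, stood at 433, 430.4 and 380.4 CPM in plates 1, 2 and 3 (mean 414, SD 29.5) and was found in 59.3% of cells (95% interval 55.5 to 62.9). Ifi47, an immunity-related GTPase directed at vacuoles that hold pathogens, stood at 304, 438 and 420.3 CPM and was found in 57.8% of cells. Slfn1, a Schlafen protein known for its link to T cell quiescence, stood at 372, 270.4 and 395 CPM and was found in 54.4%. The ranges of these 3 genes over plates overlapped, so their order is not fixed, and they made up 30.7% of all member counts.

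The next members stood lower, with a gap between the third and the fourth. Samd9l, an antiviral restriction factor, averaged 176 CPM (SD 21.8), Ifi27l2a, a small membrane protein, 176 (SD 26.8), and Trim30a, a ubiquitin ligase that dampens inflammatory signalling, 171 (SD 29.0). Igtp, an immunity-related GTPase, averaged 136 CPM (SD 17.6) and Ddx58, the viral RNA sensor RIG-I, 123 (SD 32.5). Irf9, the DNA-binding part of ISGF3, averaged 103 CPM and varied little, at 102, 109.6 and 99.0 in plates 1, 2 and 3. Slfn8 followed at 101 CPM (SD 18.5), Gbp7, a guanylate-binding GTPase, at 91.8 (SD 18.5) and Dtx3l, a ubiquitin ligase, at 90.1 (SD 30.3). From Samd9l down to Dtx3l, neighbours in this order did not differ beyond their spread over plates. The 12 genes named so far made up 62.0% of all member counts.

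**Figure D1:**
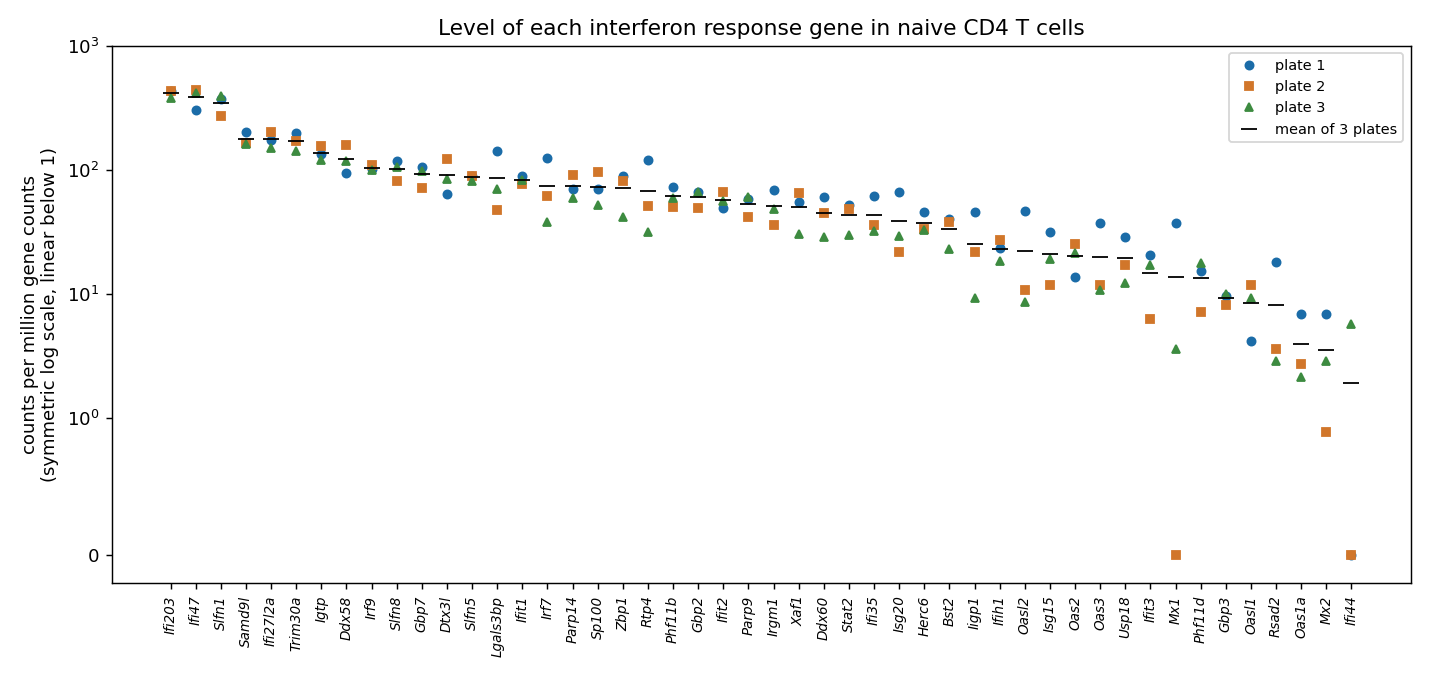
Level of each of the 48 interferon response genes in CPM (vertical axis, symmetric log scale, linear below 1), with 1 symbol per plate and a bar for the mean of 3 plates, in order of the mean. Ifi203, Ifi47 and Slfn1 stand above the other members, and Mx1 and Ifi44 are at 0 in at least 1 plate.

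By role, the 13 effectors that act on RNA took 979 CPM together (SD 138) and the 7 immunity GTPases 762 (SD 23.8). The 5 nucleic acid sensors took 676 CPM (SD 80.1), of which Ifi203 alone made up most. The 5 genes of signalling and transcription took 313 CPM (SD 75.1). Virus assembly and entry effectors were lowest by their mean, at 229 CPM (SD 65.6). Trim30a, described above as a ubiquitin ligase that dampens inflammatory signalling, was listed in this group and made up most of that. The ubiquitin-like and ADP-ribosyl system averaged 275 CPM (SD 22.8) and was the lower of the pair in plate 1, at 269 against 302. The lowest members of the order were each found in few cells. Mx1, a GTPase that blocks influenza virus, was found in 11 cells, Mx2 in 9, Rsad2 (viperin) in 8, Oas1a, which makes the messenger that activates RNase L, in 7, and Ifi44 in 5. Mx1 stood at 37.2 CPM in plate 1, had no count in plate 2, which allows up to 2.69, and stood at 3.56 in plate 3. A single cell held up to 13 of its counts. Isg15, the ubiquitin-like modifier, stood at 31.7, 11.7 and 19.2 CPM and was found in 7.32% of cells. Several inducible members stood higher in plate 1 than in the other plates, among them Irf7 (124, 61.1 and 37.8 CPM) and Rtp4 (120, 51.2 and 31.3). How much of this came from the pair of plate 1 cells rich in member counts was not tested.

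The upstream pathway was also present. Ifnar1 was found in 40.6% of cells, Ifnar2 in 16.2% and Jak1 in 84.1%. Tyk2 stood at 28.9 CPM (SD 14.4). Of 11 interferon ligand genes listed, 2 were in the table: Ifne and Ifng were found in 1 cell each.

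Whether these genes vary together from cell to cell was described within each plate. Each cell was thinned at random to 2117 UMIs, which kept 557 of 697 cells (124, 176 and 257) and left out 140 shallower cells. At that depth a cell held a median of 4, 5 and 5 members in plates 1, 2 and 3. The variance over cells of the number of members found was divided by the variance that independent genes of the same detection would have, so that a ratio of 1 marks no co-variation. For the interferon genes this ratio was 3.66, 1.82 and 1.95 in plates 1, 2 and 3 (mean 2.48, SD 1.03, n = 3). All 3 plates lay above 1, with plate 1 highest. A list of 68 other interferon-induced genes, 55 of them in the table, gave 2.07, 1.40 and 1.12. For receptors and signalling genes it was 0.983, 1.07 and 1.04, close to 1 in each plate. Such a ratio also depends on how many genes a list holds and how often they are found, so the lists are given side by side and not ranked. Cells of a plate are not replicates, so these ratios carry no test.

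**Figure D2:**
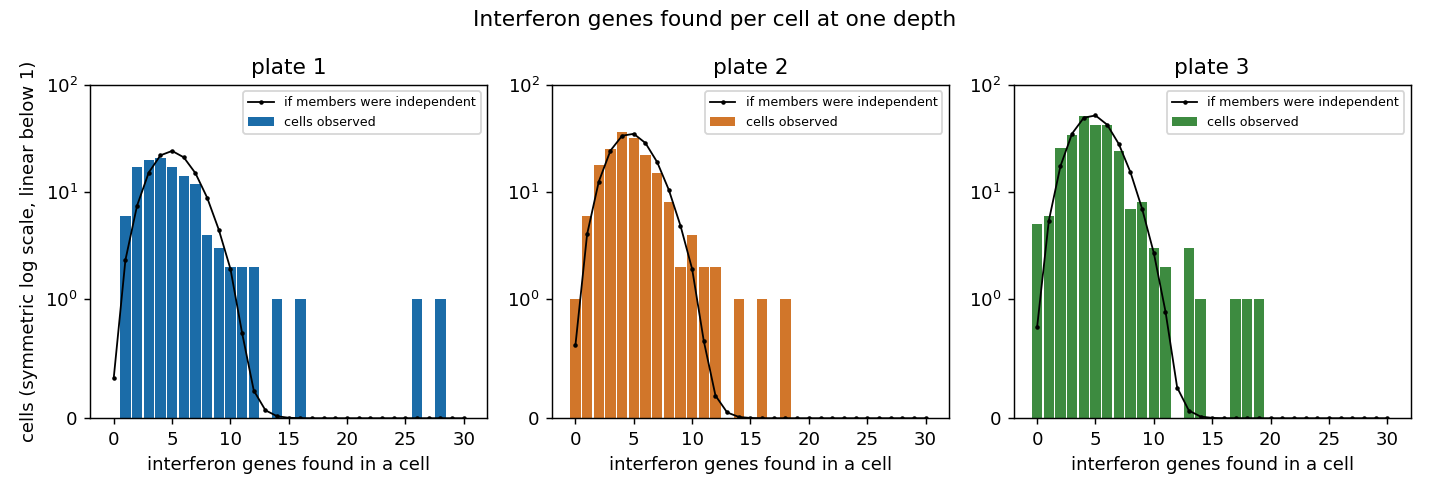
Number of interferon response genes found per cell at 2117 UMIs (horizontal axis) against the number of cells (vertical axis, symmetric log scale, linear below 1), 1 panel per plate. Bars are observed cells and the line gives the cells expected if the genes were independent. The bars run on to 28, 18 and 19 genes in plates 1, 2 and 3.

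The ratio was lower without the cells that held the most members. Leaving out the 1 cell of each plate with the most members gave 2.77, 1.60 and 1.77 (mean 2.05). In the cells with fewer than 10 members it was 1.14, 0.956 and 1.08 (mean 1.06), a limit that lowers the ratio by its construction. Leaving out 1 of the 3 leading genes among members found in at least 10 cells of each plate moved the ratio little. The mean ratio was 2.40 without Irf7, 2.37 without Xaf1 and 2.41 without Gbp7.

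Which genes carried it was read from the correlation of each member's count with the number of other members in the same cell. Over the 26 members found in at least 10 cells of each plate, the mean over plates had a median of 0.17, and 17 were positive in every plate. Irf7, the transcription factor that amplifies interferon production, led with r of 0.51, 0.23 and 0.30 in plates 1, 2 and 3. Cells with an Irf7 UMI held 7.94, 6.10 and 7.77 other members, and cells without one held 4.66, 4.68 and 4.78. Xaf1, a partner of the apoptosis inhibitor XIAP, had r of 0.29, 0.44 and 0.30, with 8.50, 7.88 and 8.64 other members in cells that held it. Both genes were thus in the richer cells in each plate, on 16, 21 and 13 Irf7 cells and 12, 16 and 14 Xaf1 cells. In the cells with fewer than 10 members, Irf7 gave r of -0.03, 0.10 and -0.004, and Xaf1 0.05, 0.09 and -0.03. That limit narrows the range of the number of members and counts the gene itself, so it lowers r by its construction. How far the correlations of both genes rested on the cells with 10 or more members cannot be read from these values.

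The other leading members varied more between plates. Gbp7 had r of 0.54 in plate 1 but 0.04 in plate 2 and 0.18 in plate 3. Igtp gave 0.31, 0.33 and 0.10, Rtp4, an inhibitor of viral RNA replication, 0.38, 0.21 and 0.10, and Samd9l 0.28, 0.17 and 0.22. Lower again came Ifi27l2a, at 0.33, 0.14 and 0.12, Bst2 (tetherin, which holds budding virus at the cell surface), at 0.21, 0.32 and 0.04, and Lgals3bp, a secreted galectin-binding glycoprotein, at 0.32, 0.11 and 0.09. Zbp1, a sensor of Z-form nucleic acid, gave 0.46, -0.01 and 0.10, so that its place rested on plate 1. Some members fell outside the count limit and were picked out after their values were seen. Ifit1, which binds viral RNA that lacks a host cap, gave 0.57, 0.32 and 0.31 on 13, 8 and 22 cells, and Slfn5 gave 0.46, 0.20 and 0.23. The mean over plates was 0.398 for Ifit1, 0.386 for Ifit3 and 0.355 for Oasl2, each above Irf7 at 0.346. Ifit3 rested on 4, 1 and 11 cells and Oasl2 on 3, 2 and 2. The other members outside the limit with a value in every plate lay below Irf7.

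The 3 most abundant members had lower correlations than Irf7 and Xaf1 in every plate. Ifi203 had r of -0.06, 0.15 and 0.14, Slfn1 0.05, 0.06 and 0.22, and Ifi47 0.07, 0.11 and 0.28. Ddx58 was lowest, at -0.10, 0.11 and 0.05, with Ddx60, a helicase related to the RNA sensors, next at 0.11, 0.02 and -0.02. Cells with a Ddx58 UMI held 4.17, 5.21 and 4.46 other members, against 5.22, 4.62 and 4.90 in cells without. By role, the correlation of a group with all other members averaged 0.13 for the nucleic acid sensors and 0.37 for the other induced genes, with the RNA effectors at 0.36. Among the 26 members within the count limit, the ISRE core was not more frequent in the leading genes. Of the 10 leading members 7 had a promoter to search and 3 held the core, and of the other 16 members 15 had one and 8 held it. Ifit1 and Slfn5 hold the core and had mean correlations of 0.398 and 0.298, but fell outside the limit and so outside this comparison.

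**Figure D3:**
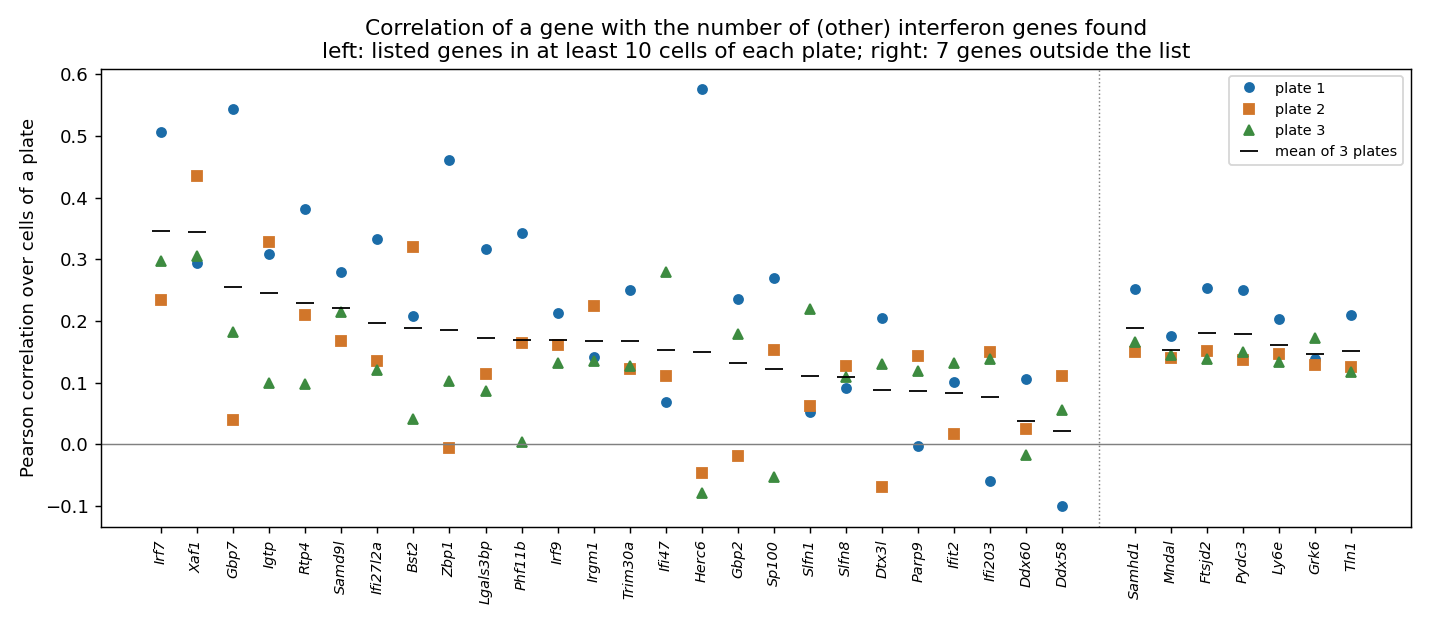
Pearson correlation over the cells of a plate (vertical axis) between a gene's count and the number of interferon response genes found, the gene itself left out, with 1 symbol per plate and a bar for the mean. Left of the dotted line stand the 26 members found in at least 10 cells of each plate, right of it 7 genes outside the list with high lowest-plate values. Irf7 and Xaf1 lead and Ddx58 is last on the left, and the genes on the right are positive in every plate.

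The same correlation was taken for 3665 genes found in at least 5% of cells of each plate, 28 of them members. In the order of the lowest value over plates, 5 of the first 10 genes, 9 of the first 20 and 14 of the first 50 were members. Of the 28 members 18 were positive in all plates, against 12.3% of the genes outside the list. Among genes outside the list with high lowest-plate values, Samhd1, a nucleotide hydrolase that restricts retroviruses, gave 0.25, 0.15 and 0.17. Mndal, a PYHIN gene that overlaps Ifi203, gave 0.18, 0.14 and 0.14. Ftsjd2, an RNA cap methyltransferase, and Pydc3, a PYHIN relative, had lowest-plate values of 0.14 each, and Ly6e, a lipid-anchored surface protein that blocks virus fusion, of 0.13. Also among them were Grk6, a receptor kinase (0.14, 0.13 and 0.17), and Tln1, the integrin adaptor talin (0.21, 0.13 and 0.12). In the cells with fewer than 10 members, Samhd1 gave 0.02, 0.23 and -0.02, while Grk6 stood at 0.26, 0.15 and 0.18.

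Cells with 10 or more members at the thinned depth were then described. The limit of 10 was set after the data were seen and cuts a range rather than a cell type: 9 cells lay at exactly 10 and 13 at 9. Such cells numbered 33 of 557 (5.92%), with 10, 11 and 12 in plates 1, 2 and 3, or 8.06%, 6.25% and 4.67% of each plate. They held 27.6%, 18.6% and 14.3% of all member UMIs of their plates. At the top, a pair of cells in plate 1, both of the Middle class, held 28 and 26 members, and 43 and 36 of the 48 before thinning. The next cell held 19 members (plate 3, Low class) and the fourth 18 (plate 2, Low class).

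The genes of these cells were read as a description, since the cells were chosen on them. Some rare members were mostly found in them at this depth. Both cells with an Mx1 UMI were among the 33, and Oasl2 was found in 18.2% of the 33 and 0.191% of the rest. Of all thinned UMIs of Oasl2, an OAS-like protein, 90.9% were in these cells, and of Ifit3 61.5%. Usp18, the protease that removes Isg15 and shuts off the receptor, had 55.6% of its UMIs there, Ifit1 45.6%, Irf7 40.7% and Xaf1 39.6%. Xaf1 was found in 48.5% of the 33 cells and 4.96% of the rest, and Irf7 in 42.4% and 6.87%.

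T cell markers were found in all of these cells. At least 1 of 6 T cell markers was found in 33 of 33, and the 4 B cell markers in 0 of 33, which allows a share of up to 9.09%, against 2.67% of the other cells. Myeloid markers were found in 33.3% of them and 37.4% of the rest, and regulatory T cell markers in 6.06% and 11.3%. Plasmacytoid dendritic markers, with Bst2 set aside because it is a member, were found in 9.09% (3 cells) and 5.53%, and their part in the result was not tested. The median total before thinning was 6589 UMIs in these cells and 4718 in the rest in plate 1, 5871 and 5986 in plate 2, and 4955 and 4697 in plate 3. Over cells, the Spearman correlation of the number of members with the total before thinning was 0.30, 0.19 and -0.01. The part of depth was not tested beyond the thinning. Plates shared 285 of 372 well numbers, and 1 well number held such a cell in more than 1 plate.

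By CD5 class, 5 of 150 Low cells (3.33%, 95% interval 1.09 to 7.61), 23 of 275 Middle cells (8.36%, 5.38 to 12.3) and 5 of 132 High cells (3.79%, 1.24 to 8.62) had 10 or more members. Clopper-Pearson intervals cover counting error only, and those of the 3 classes overlapped. Middle stood above Low in each plate (13.2% and 5.13% in plate 1, 10.1% and 2.44% in plate 2, 5.26% and 2.86% in plate 3). Against High it stood above in plates 1 and 2 (3.13% and 2.17% in High) but not in plate 3 (5.56%). No test was made of a limit chosen on these cells.

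The comparison of CD5 High with CD5 Low cells asks whether the tonic interferon programme differs between naive cells of stronger and weaker self-reactivity. Counts were summed per plate and class and fitted with edgeR over all genes. None of the members passed: of the 48, 32 had enough counts to be tested and 0 were called at an adjusted p of 0.05. The background was low as well, with 9 of 4813 genes called (0.187%). At an unadjusted p under 0.05 there were 3 of 32 members (9.38%), against 297 of all genes (6.17%). DESeq2 gave 0 members called and 3 unadjusted (9.38%), against 147 of all genes unadjusted (3.05%). Without plate 2, where Cd5 did not follow the class, there were 7 of 33 members (21.2%), against 327 of 5113 genes (6.40%), and still 0 called. Fitted log2 values were positive for 14 members and negative for 18, with a median of -0.08, against 0.003 for all genes tested. The median standard error of a member was 0.41 on the log2 scale, so modest changes of single genes were not detectable. Cd5, the gene of the sorted protein, passed as a check of the classes, with a log2 value of 1.70 (SE 0.30, edgeR adjusted p = 0.0023), carried by plates 1 and 3.

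The members' summed share differed little between the CD5 Low and High classes. The members took 0.367%, 0.360% and 0.370% of counts in the Low class of plates 1, 2 and 3, and 0.334%, 0.358% and 0.349% in the High class. High lay below Low in each plate, by a log2 ratio of -0.14, -0.01 and -0.09 (mean -0.08, SD 0.067, n = 3). The Middle class took 0.493%, 0.374% and 0.322%. In plate 1 that class held the pair of cells with 28 and 26 members, whose part in its high value was not tested. At the thinned depth a cell held 5.09 members in the Low, 5.24 in the Middle and 4.74 in the High class (means of 3 plates, SD 0.211, 0.496 and 0.239). Within plates, the Spearman correlation of the number of members with CD5 fluorescence was -0.10, -0.04 and -0.05.

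**Figure D4:**
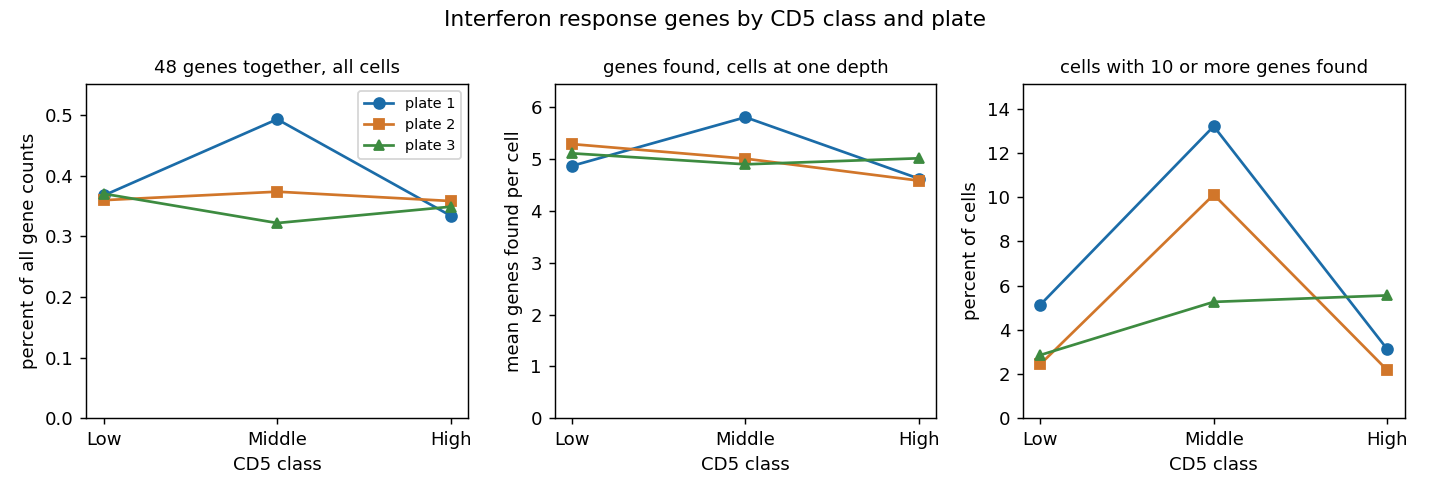
Interferon response genes by CD5 class (horizontal axis), with 1 line per plate. Panels give the percent of all gene counts taken by the 48 genes in all cells, the mean number of them found per cell at 2117 UMIs, and the percent of such cells with 10 or more of them. The first 2 measures change little between Low and High, and the Middle class of plate 1 is highest in each panel.

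Single members are given with the values of their plates, none of which passed. Ddx60 had the smallest p. It stood at 102, 84.1 and 51.7 CPM in the Low sums of plates 1, 2 and 3 and at 21.7, 40.7 and 21.8 in the High sums. The groups did not overlap, and the fitted log2 value was -1.41 (SE 0.49, edgeR adjusted p = 0.625). Ddx60 had only 44, 50 and 40 counts in all cells of plates 1, 2 and 3, so its class sums rest on few counts. The share of all genes whose groups do not overlap was not taken, so overlap is given only as a description. Cells with a Ddx60 UMI made up 17.2% of the Low, 8.31% of the Middle and 9.20% of the High class. Ifi35, a partner of the signalling protein Nmi, stood at 81.2, 44.3 and 54.6 CPM in Low and at 21.7, 37.0 and 3.63 in High, again without overlap (log2 -1.54, SE 0.57, adjusted p = 0.758). It had 45, 40 and 45 counts in all cells of plates 1, 2 and 3, so its sums also rest on few counts. Its ratio was near 0 in plate 2, at -0.20 on the log2 scale, and without that plate the fitted value was -2.61 with an adjusted p of 0.146.

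Trim30a stood at 274, 217 and 164 CPM in Low and at 70.5, 181 and 123 in High, groups that overlapped (log2 -0.72, SE 0.28, adjusted p = 0.773). Irgm1, an immunity-related GTPase that regulates the others, had a fitted value of -0.86 (SE 0.47, adjusted p = 0.845), with 0.17, -0.75 and -2.08 in plates 1, 2 and 3. On the positive side, Ifi203 stood at 442, 456 and 359 CPM in Low and at 548, 463 and 576 in High, which did not overlap (log2 0.35, SE 0.17, adjusted p = 0.811). Ddx58 (0.54, adjusted p = 0.845) and Stat2, a subunit of ISGF3 (0.73, adjusted p = 0.912), were positive in 2 of 3 plates. Ifi27l2a was positive in all 3, at 0.23, 0.20 and 0.85 (fitted 0.43, adjusted p = 0.880).

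Members of a role did not share a passing change. All 5 tested immunity GTPases had negative fitted values, from -0.86 to -0.12, with Ifi47 nearest to 0, and none passed. Of all genes tested, 49.7% were negative. The plates did not share this sign: Igtp, Ifi47 and Irgm1 were positive in plate 1, at 0.76, 0.23 and 0.17. Only Gbp7 and Gbp2 were negative in every plate. Signalling and transcription genes gave 3 positive and 1 negative, and the RNA effectors 3 positive and 4 negative. Irf7 and Xaf1, which led the co-variation among members within the count limit, stood on both sides, at 0.22 and -0.54. The fitted sign was shared by all 3 plates for 12 of 32 members (37.5%), against 23.9% of all genes.

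**Figure D5:**
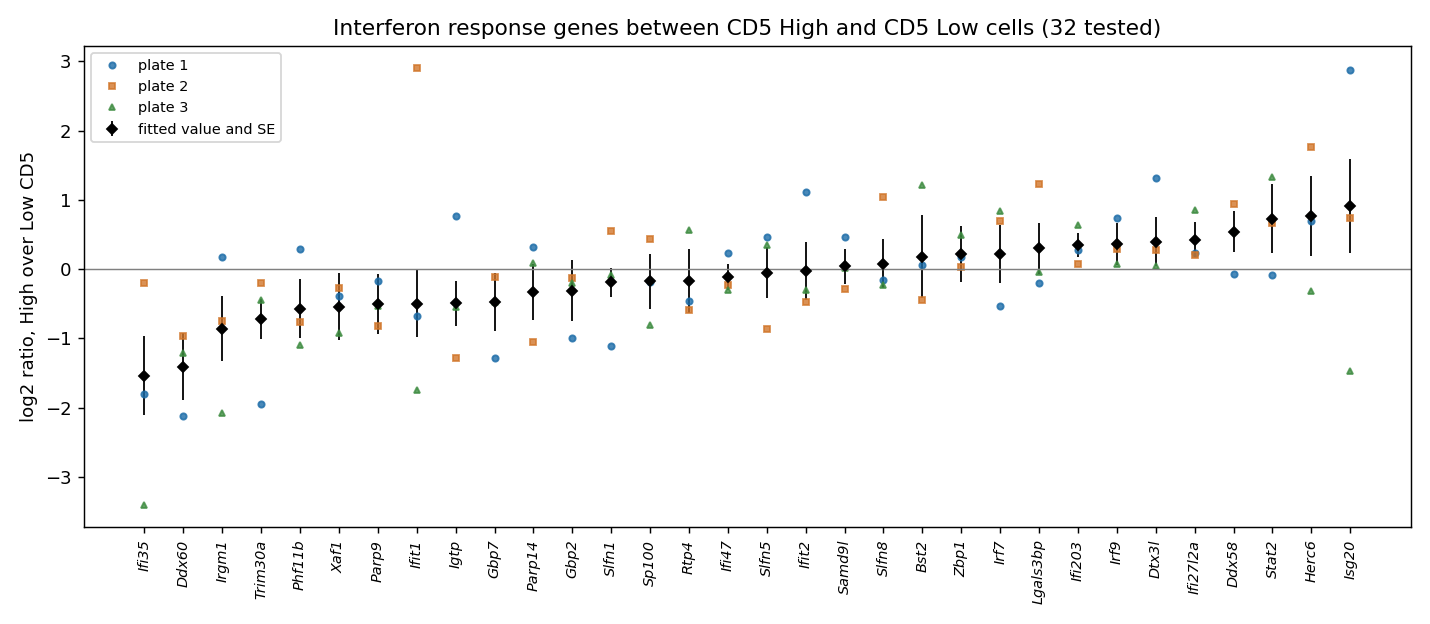
Log2 ratio of CD5 High over CD5 Low (vertical axis) for the 32 interferon response genes tested, in order of the fitted value. Diamonds with bars are the fitted value and its standard error, and the 3 small symbols are the plates. Ifi35 and Ddx60 are lowest, Isg20 is highest, and none passed the adjusted threshold.

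The trend over the whole range of CD5, with 4 bins of cells per plate, gave the same count. Of 35 members tested 0 were called, against a background of 6 of 5019 genes (0.120%). At an unadjusted p under 0.05 there were 4 members (11.4%), against 243 of all genes (4.84%). DESeq2 gave 0 members called and 5 unadjusted (14.3%), against 207 of all genes unadjusted (4.12%). Slopes per doubling of CD5 were positive for 18 and negative for 17, with a median of 0.02. Taken in each plate by itself, the median member slope was -0.04, -0.03 and -0.06, against -0.02, 0.01 and -0.02 for all genes. All 3 plates shared a sign for 11 of 35 members (31.4%), 9 negative and 2 positive, against 24.6% of all genes. Ddx60 had the smallest p again, with a slope of -0.56 (SE 0.19, edgeR adjusted p = 0.784) and -0.99, -0.27 and -0.47 in the plates, and Ifi35 came next at -0.55 (SE 0.19, adjusted p = 0.822). The trend and the class contrast use the same cells, so this is not separate evidence. Positive slopes of smallest p were those of Isg20, an exonuclease, at 0.47 and of Ifi27l2a at 0.15 (adjusted p = 1.0 each).

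Other genes of the pathway did not pass either. Of 18 tested receptors and signalling genes 0 were called in the class contrast, 9 positive and 9 negative, with Jak2, a receptor kinase, at 0.95 (SE 0.43, edgeR adjusted p = 0.795). The Jak2 value leaned on plate 2, at 2.91, with 0.78 and 0.05 in plates 1 and 3. Of 35 other interferon-induced genes tested 0 were called, 16 positive and 19 negative, and 6 (17.1%) had an unadjusted p under 0.05, against 6.17% of all genes. In the trend this count was 2 of 35 (5.71%), against 4.84%. Ly6a, the surface antigen Sca-1, was lower in High in each plate (log2 -0.84, SE 0.30, adjusted p = 0.653), and Slfn9, a neighbour of the listed Schlafen genes, was higher in each (0.76, SE 0.28, adjusted p = 0.758). In the trend, 0 genes of these lists were called, with Jak2 at a slope of 0.41 (adjusted p = 0.878) and Ly6a at -0.32 (adjusted p = 0.822).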

How the data were processed

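The counts are expected counts deposited by the authors per gene and cell: UMI counts corrected for collisions among the 4096 sequences of 6 bases, never more than 0.00499 from such a value and not whole for 0.812% of values. Per the labels, libraries were made with SORT-seq, which runs CEL-Seq2 in plates, and mapped to mm10 with BWA. The version of BWA and the rule for keeping cells were not given in the sources used here. CD5 is the fluorescence signal deposited by the authors per sorted cell, with a deposited class label. The 84 spike-ins, 19.6% of counts, were left out.

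Counts were rounded after summing per plate and class (9 sums) or per plate and CD5 bin (12 sums). They were tested with edgeR 4.0.16 in R 4.3.3 (quasi-likelihood, TMM, filterByExpr, the plate as block, two-sided), Benjamini-Hochberg adjusted over all tested genes at 0.05. DESeq2 1.42.0 was an alternative. Plates pair the sums because classes of a plate share a library. Python 3.11.15 (numpy 2.4.6, pandas 2.3.3, scipy 1.17.1, matplotlib 3.10.9) did the rest. Cells were thinned to 2117 UMIs, the 20% quantile. Scripts for the tests and ratios were tested on simulated data. Doublets were not called. Intervals are exact (Clopper-Pearson, 95%).

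The members, gene lists and naming rule were chosen with earlier results of these data known. The rule names the 12 members of highest level, the 10 of highest mean correlation found in at least 10 cells of each plate, 8 other genes, for CD5 the 4 members (trend: 2) of smallest p in each direction, and up to 2 genes of smallest p per pathway list. 1 gene that it names is not reported here.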

Additional observations from a re-analysis of the deposited data

How the results depend on the processing

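No interferon response gene was called in either fit under any of the 12 alternatives run for it. Each member named for its smallest p in a direction kept its sign in all alternatives that tested it. The signs of other members were not followed over these alternatives. Over those alternatives Ddx60 ran from -1.70 to -1.12 in the class contrast (adjusted p 0.534 to 0.998) and Ifi35 from -2.61 to -0.94 (0.146 to 0.998). The median member of the class contrast ran from -0.18 to -0.00498. In the trend it was 0.0161 and its sign was not stable: it was -0.0371 without a filter, -0.0771 with a mean of at least 50 counts (3 members), -0.00316 with no replicate block, -0.0293 in thinned cells, -0.0232 without the cells with 10 or more members, 0.0319 without the top member cell of each plate, and -0.0363 to -0.00301 when a plate was left out. The cause was not tested. Over all genes, the class contrast called 9: it called 0 with the DESeq2 Wald test (147 unadjusted), 16 without a filter (13959 tested), 0 with no replicate block (198 unadjusted), 1 without the top Kcnq1ot1 cell, and 0 to 20 when a plate was left out, the 20 without plate 2. The trend called 6: it called 3 with the Wald test, 10 without a filter, 0 with no replicate block (179 unadjusted), 1 without the top Kcnq1ot1 cell, and 0 to 14 without a plate. The pairing by plate thus changed no call of a member. The co-variation ratio, 2.48, was 4.74 without thinning and 1.06 in cells with fewer than 10 members. Leaving out the Kcnq1ot1 cell (the cell richest in a group of genes that vary with that RNA), leaving out the cells with 10 or more members, and repeating the thinning with other draws were chosen after seeing the data. Depth limits the rare members: 16 of 48 were too low for the class test and 22 for the correlation.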

Other observations

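Genes of MHC class I presentation, which display peptides from inside the cell and also respond to interferons, include some of the most abundant transcripts of these cells. B2m, the shared light chain, was found in 99.9% of cells at 6057 CPM (SD 252, n = 3 plates). The co-variation ratio of the 15 listed genes in the table was 1.48, 1.21 and 0.991 in plates 1, 2 and 3. Genes found in nearly every cell, such as B2m, add almost nothing to it, so it is not compared with that of the interferon response genes. The 8 GIMAP GTPases, lymphocyte survival proteins taken as a list outside the interferon response, gave 1.18, 1.16 and 1.05. Between the CD5 classes 0 of 14 tested MHC genes and 0 of 8 GIMAP genes were called by edgeR, 0 of either at an unadjusted p under 0.05. Psmb8, an immunoproteasome subunit, had the smallest p of the first list (log2 0.37, SE 0.20, adjusted p = 0.845) and H2-D1, a heavy chain, the next (0.13, SE 0.08, adjusted p = 0.880). Gimap8 stood at -0.27 (SE 0.18, adjusted p = 0.912).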
